A study of Homo sapiens with 3 samples.

Results

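Non-endocrine cells are the cells of a pancreatic differentiation that did not switch on the secretory programme of hormone cells. They were taken here as the barcodes with 1000 to 40000 UMIs (unique molecular identifiers, each standing for 1 captured RNA molecule), at least 500 genes, a mitochondrial share of up to 20% and CHGA, the granule protein chromogranin A, under 5 per 10000 UMIs. This rule kept 6600 of 9667 barcodes in the WT library and 7546 of 9628 in the HET library, 14146 of 19295 barcodes together. They came from 3 droplet single-cell RNA libraries of H1, a long-established line of human embryonic stem cells, taken through a differentiation to pancreatic beta cells. The 3 genotypes were WT, with no PAX6 change named, HET, labelled PAX6+/-, and KO, labelled PAX6-/-. The position of the lesion, the number of clones and the day of collection were not given in the sources used here. KO, with 7402 such cells, was set beside the others as a further library. With 1 library per genotype, no test between genotypes was possible and no difference below has a replicate check. Genotype, library, differentiation run and any clone effect cannot be told apart. The intervals given are exact 95% intervals that cover counting error only.

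In the developing pancreas, progenitors marked by PDX1 and SOX9 give rise to ducts, enzyme-secreting acini and endocrine cells. Stem cell cultures follow the same route and leave many cells outside the endocrine fate, among them cells with genes of gut or liver, the neighbouring endoderm organs. PAX6 is a transcription factor of hormone cells, switched on once endocrine fate is set, and it maintains hormone gene expression. It is otherwise known for the eye and brain, and ducts and progenitors carry little of it. The comparison of HET with WT in these cells thus asks which RNAs differed where PAX6 itself was nearly absent.

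The labelled cell type, beta cells, did not describe these barcodes. PAX6 stood at 6.29 CPM (counts scaled to 1000000 UMIs with TMM factors) in WT, 2.12 in HET and 2.39 in KO, against 297, 217 and 264 CPM in the cells at or above the CHGA limit. Without the position of the lesion, a PAX6 RNA level does not check the genotype labels. At least 1 PAX6 UMI was found in 5.97% of the WT cells (interval 5.41 to 6.57), with 2.81% in HET (2.45 to 3.21) and 3.32% in KO (2.93 to 3.76), at median depths of 14506.5, 13961.5 and 15618.5 UMIs. Above the limit the shares were 56.9%, 53.9% and 49.4%, at 12876.5, 12578 and 12514 UMIs. The 11 endocrine markers other than CHGA summed to 360.0 per 1000000 UMIs in WT, 209.8 in HET and 242 in KO, and to 8091, 6204 and 6777 above the limit. The limit itself was not a gap. WT cells with CHGA from 4 to 5 per 10000 UMIs (103 cells) had 1303 marker UMIs per 1000000, and those from 5 to 6 (76 cells) had 2245. In HET the same bands held 58 and 34 cells with 599 and 505 marker UMIs per 1000000.

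The summed counts were 102621449 UMIs in WT, 115146034 in HET and 122337732 in KO. The median mitochondrial share was 4.72% in WT, 6.22% in HET and 5.41% in KO. WT and HET shared 23 barcodes among their non-endocrine cells.

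Clustering the non-endocrine cells of the 3 libraries together gave 10 clusters, of which clusters 1 to 8 had at least 50 cells in both WT and HET. Cluster 1 was led by ANKRD1, IGFBP7 and DKK1, and cluster 2 by FABP1, LGALS14 and CCL20. Cluster 3 was led by RBP4, PIEZO2 and PTN, cluster 4 by SUSD4, LYZ and SSTR2, and cluster 5 by NTS, SHOX2 and PCDH9. SULT1E1, AOC1 and MMP1 led cluster 6, and the stress genes MT2A, ATF3 and GADD45B led cluster 7. Cluster 8 was led by TOP2A, CENPF and MKI67, genes of dividing cells. Cluster 9 held 632 HET cells, 124 KO cells and no WT cell, and cluster 10, led by the hormone and neuroendocrine genes SST, STMN2 and PYY, held 131 WT, 34 HET and 51 KO cells. Within clusters 1 to 8 PAX6 lay between 3.12 and 5.32 CPM in WT and between 1.54 and 2.60 CPM in HET, while cluster 10 had 175 and 61.3 CPM. The rule therefore left a small endocrine remainder, larger in WT, that carried part of the PAX6 RNA.

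Most RNAs had close levels in both libraries. Of 3489 genes with at least 50 CPM in WT or HET, 3015 (86.4%) lay within 0.5 of equal levels on the log2 scale. A difference of 2-fold or more was found for 14 genes higher in HET (0.401% of the genes measured) and 42 genes lower in HET (1.2%). This split depended on the scaling, since plain CPM gave 28 higher and 24 lower. With clusters 1 to 8 weighing the same, 14 genes were higher and 19 lower. The median gene stood at -0.09 (log2 HET over WT) with TMM factors and at 0.04 with plain CPM. KO against the same WT library had 17 genes higher (0.485%) and 60 lower (1.71%) of 3504. As HET and KO share that WT library, likeness between them is no independent support, and KO levels are given side by side only.

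**Figure D1:**
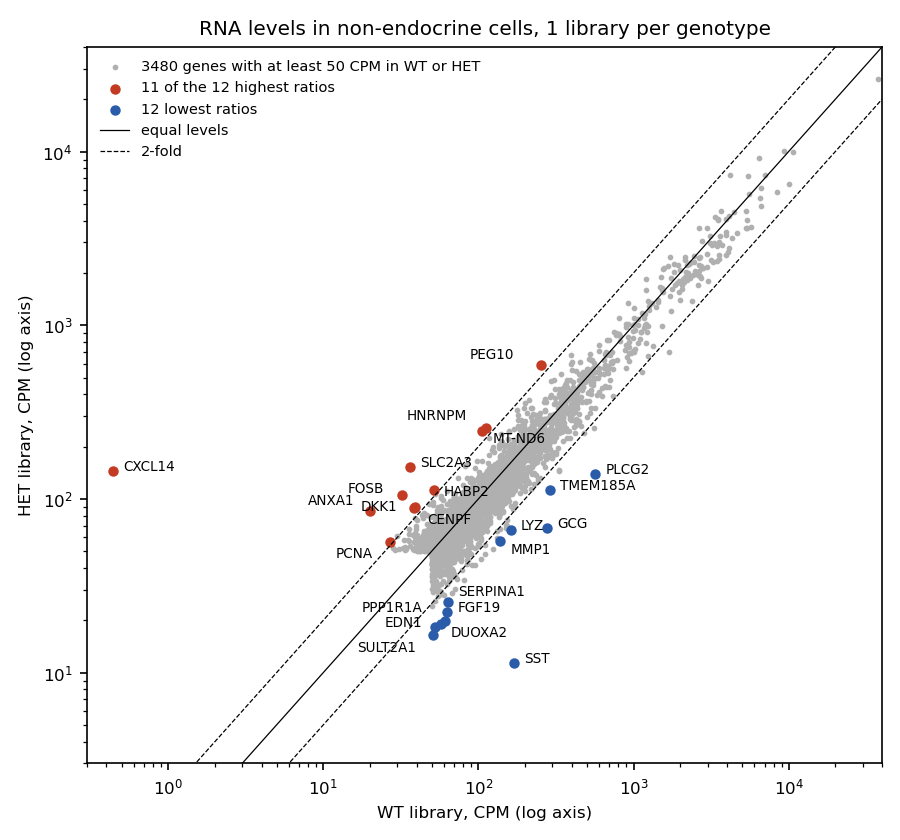
Level of each gene in the non-endocrine cells of WT (x axis) and HET (y axis), in CPM on log axes, with 1 library per genotype. Grey points are 3480 genes with at least 50 CPM in WT or HET that lie outside the Y chromosome and are not X-inactivation RNAs, red and blue points 11 of the 12 highest and the 12 lowest ratios, the solid line equal levels and the dashed lines 2-fold. CXCL14 stands alone (0.44 CPM in WT, 145 in HET), and SST has the lowest ratio (169.7 in WT, 11.4 in HET).

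The highest ratio among genes with at least 50 CPM in WT or HET belonged to CXCL14 (chromosome 5, 135570679 to 135579279, minus strand, GENCODE 29 on GRCh38), a chemokine of skin and other epithelia. It had 0.44 CPM in WT, from 43 UMIs, 145 in HET and 20.6 in KO. Without cluster 9 its HET level was 6.69 CPM. That cluster was led by CXCL14, TFAP2B, COL3A1, ANXA1, GABRP, TFAP2A, MUC16, GATA3, VTCN1 and SPARC. TFAP2A, TFAP2B and GATA3 encode transcription factors of surface ectoderm and trophoblast, and COL3A1 a fibrillar collagen. These are genes outside the endoderm lineage of the pancreas.

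Cluster 9 made up 8.38% of the HET non-endocrine cells and 1.68% of those of KO. In WT it was 0 of 6600 cells, for which the exact interval reaches up to 0.0559%. With 1 library per genotype, a cluster held mostly by 1 library may belong to that library. Counting cells by ectoderm markers gave the same order but is no separate support. CXCL14, TFAP2A, TFAP2B and GATA3 are among both the 8 markers and the leading genes of cluster 9. Cluster 9 held 528 of the HET cells and 109 of the KO cells counted this way. Cells with UMIs from at least 3 of 8 ectoderm markers numbered 542 of 7546 in HET (7.18%, 6.61 to 7.79), 111 of 7402 in KO (1.5%) and 0 of 6600 in WT. After thinning each cell to 5000 UMIs they were 340 of 7390 (4.60%), 77 of 7267 (1.06%) and 0 of 6411. Outside cluster 9, 14 of 6914 HET cells (0.202%) had such a set, and 1 of 6777 after thinning. CXCL14 stood at 1556 CPM in cluster 9 of HET and at 1232 CPM in that of KO. In clusters 1 to 8 of HET it lay between 5.03 and 8.96 CPM, and in those of WT between 0 and 0.83. A low and even CXCL14 level thus ran through HET clusters whose leading genes were of other kinds. The part of free RNA in it was not tested.

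Leaving out cluster 9 changed which genes passed the 2-fold limit. The count of higher genes was 15 (0.431%) in place of 14, with 9 shared, and the count of lower genes 31 (0.892%) in place of 42, with 30 shared. CXCL14, ANXA1, CENPF, PCNA and EFNA5 were no longer among the higher genes. ANXA1, a phospholipid-binding protein of epithelia, had 20.1 CPM in WT and 84.6 in HET, but 16.4 in HET without cluster 9, below WT. Of the 8 ectoderm markers, KRT5, KRT14, TP63 and DLX5 stayed under 5 CPM in both WT and HET. The other 4, CXCL14, TFAP2A, TFAP2B and GATA3, were more than 2-fold higher in HET, beside 1.66% of all genes. So were 5 of 7 mesenchyme markers. The markers past 2-fold had at most 1.77 CPM in WT and met the minimum only through HET. Their 2-fold difference was therefore fixed by the minimum and is no separate result. POSTN, a matrix protein of fibroblasts, had 1.77 CPM in WT and 14.2 in HET both with and without cluster 9. PDGFRB, the receptor of mesenchymal cells, ran the other way, with 20 CPM in WT and 7.04 in HET.

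**Figure D2:**
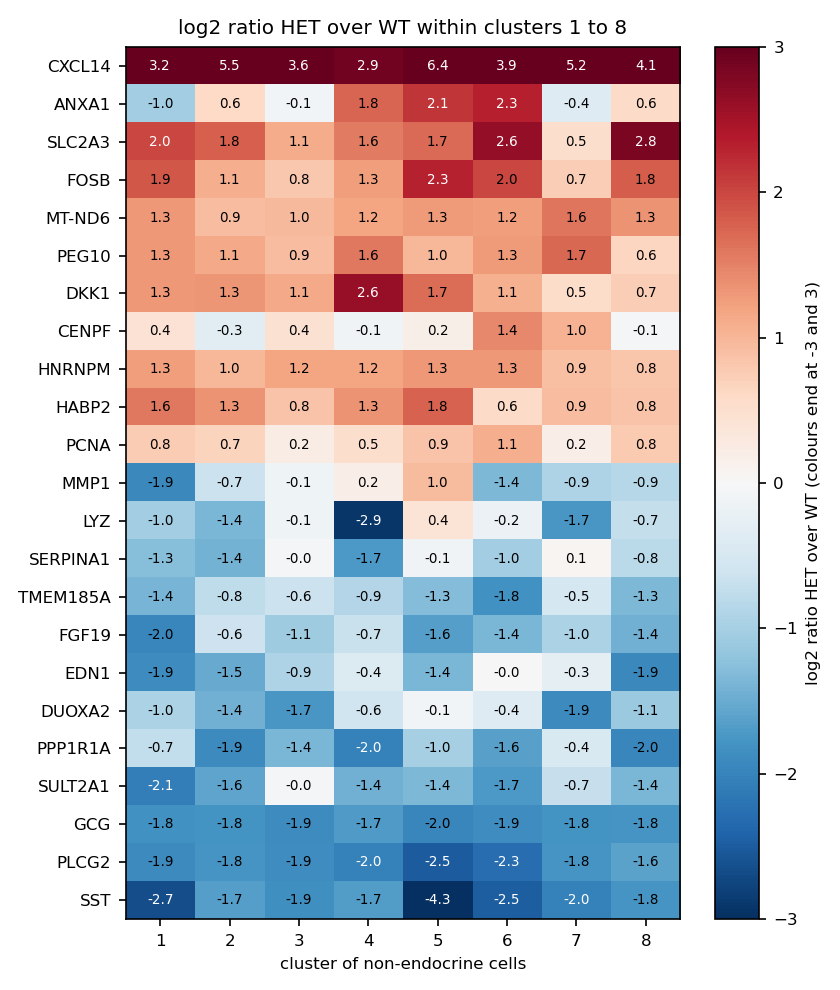
Log2 ratio of HET over WT within each of clusters 1 to 8 (columns) for 11 of the 12 highest and the 12 lowest ratios of the pooled cells (rows), with red for higher and blue for lower in HET. PLCG2 is between -2.50 and -1.60 in every cluster, whereas CENPF and ANXA1 change sign between clusters.

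SLC2A3, the glucose transporter GLUT3 (chromosome 12, 7919230 to 7936275, minus strand), had 36.3 CPM in WT, 152 in HET and 112 in KO. HET was 4.19-fold above WT (4.04 to 4.35). The gene was higher in HET in each of clusters 1 to 8, as 16.5% of the 3489 genes were, and at least 2-fold higher in 7 of them, from 109 to 376 CPM in cluster 2 and from 29.3 to 207 CPM in cluster 8. A 2-fold higher level in 6 or more of the 8 clusters was found for 8 genes (0.229%), among them CXCL14, SLC2A3, HHEX, FOSB, DKK1, HNRNPM and MT-ND6. Without cluster 9 HET still had 129 CPM of SLC2A3. SLC2A1, the glucose transporter GLUT1, had 11.8 CPM in WT, 31.9 in HET and 37.9 in KO, and was at least 2-fold higher in HET in 6 of 8 clusters. Both transporters were low in WT, and HET and KO lay on the same side.

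Of 28 measured genes of glycolysis and the hypoxia response, 21 were above WT in HET and 7 below, with SLC2A3 and SLC2A1 past 2-fold. Past the same minimum of 5 CPM lay 11273 genes in all, of which 187 (1.66%) passed 2-fold upward, 198 (1.76%) passed it downward and 46.2% were above WT. The median of the list was 0.24 in HET and 0.40 in KO, against -0.03 for all genes in HET. GPI, the glycolytic isomerase, had 54.2 CPM in WT, 86.8 in HET and 94.1 in KO. Enolase ENO1 had 401, 549.9 and 662 CPM. VEGFA, the angiogenic growth factor and a hypoxia target, lay the other way at 158, 97.7 and 99.1 CPM. The list was above the median of all genes in 5 of clusters 1 to 8 and below it in 3. SLC2A3 was higher in HET by between 0.52 and 2.82 (log2) over these clusters, and GPI by between 0.10 and 1.01.

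FOSB, a subunit of the immediate early transcription factor AP-1, had 32.1 CPM in WT, 105 in HET and 76.9 in KO. HET was 3.26-fold above WT (3.14 to 3.39), and the gene was higher in all 8 clusters and past 2-fold in 6. In the cells above the CHGA limit FOSB had 22.2, 147 and 83.4 CPM. Most of its family did not share the difference. Of 25 measured immediate early genes 10 were above WT and 15 below, and the list's median was -0.11 (0.01 with plain CPM). KLF4 was the other gene past 2-fold, at 12.6, 26.4 and 27.3 CPM. FOS, a related AP-1 subunit, had 157, 241 and 179 CPM. DUSP5, a phosphatase that switches off ERK, was lower in HET at 241, 130.1 and 134 CPM.

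Some RNAs set WT apart from both HET and KO in every cluster. HNRNPM, a splicing regulator, had 111 CPM in WT, 256 in HET and 259.9 in KO, and its 8 cluster ratios lay between 0.82 and 1.31 (log2). TMEM185A, a membrane protein gene of the X chromosome, had 289, 113 and 115 CPM and was below WT in HET in each of the 8 clusters, by between 0.52 and 1.81 on the log2 scale. HNRNPM thus had a nearly constant ratio, and TMEM185A a varying one.

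PLCG2 was a further gene of this kind and differed more than HNRNPM and TMEM185A. It encodes phospholipase C gamma 2, a signalling enzyme best known from B cells and other blood cells (chromosome 16, 81739097 to 81962693, plus strand). It had 564 CPM in WT, 139 in HET and 165 in KO, and was 4.07-fold lower in HET than in WT (4.0 to 4.14). The ratio passed 2-fold in 8 of 8 clusters. A 2-fold lower level in 6 or more clusters was found for 5 genes (0.143%), PLCG2, GCG, SST, AKR1C3 and SULT2A1, and 24.6% of the 3489 genes were lower in all 8. WT levels ran from 413 CPM in cluster 8 to 946 in cluster 7, and HET levels from 107 in cluster 5 to 278 in cluster 7, so the WT and HET ranges did not overlap. The cells above the CHGA limit had almost the same levels, 555 CPM in WT, 136 in HET and 125 in KO. The log2 ratio of HET over WT for PLCG2 was -2.02 below the limit and -2.03 above it. The cause and the part of free RNA were not tested.

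**Figure D3:**
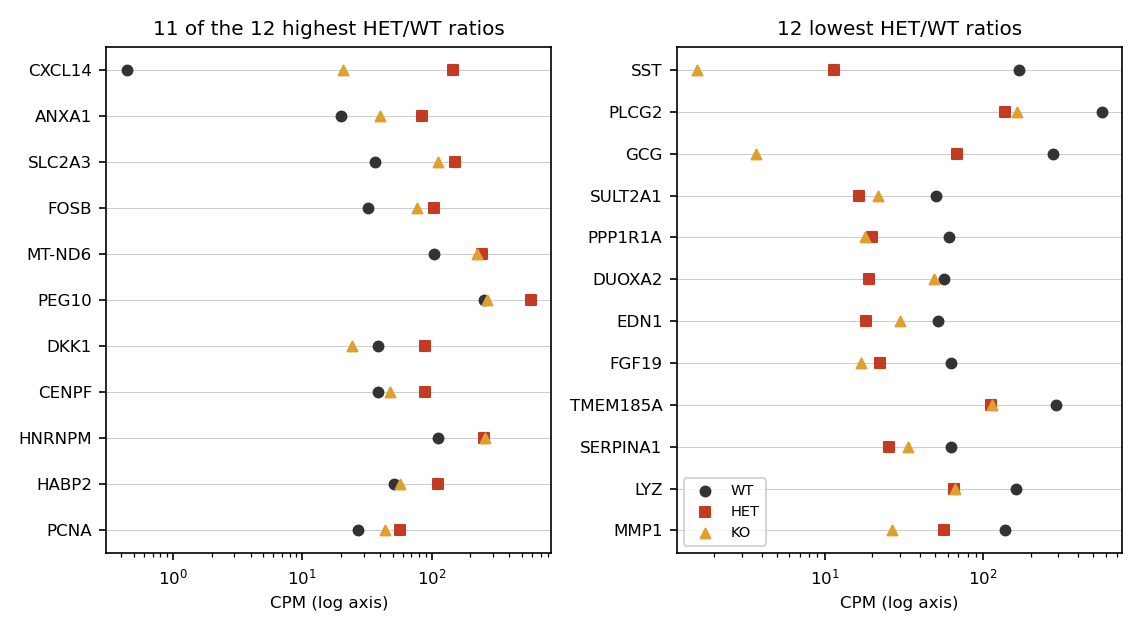
Level (CPM, log axis) in the non-endocrine cells of WT (circles), HET (squares) and KO (triangles) for genes with 11 of the 12 highest and the 12 lowest HET over WT ratios. KO lies beside HET for HNRNPM, PLCG2, TMEM185A and LYZ, and beside WT for PEG10, HABP2 and DUOXA2.

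For other genes the pooled KO level lay near that of WT. KO had another make-up of clusters, with 30.2% of its cells in cluster 3 against 8.65% in WT and 4.48% in HET, so levels within clusters are given as well. PEG10, an imprinted gene derived from a retrotransposon and expressed from the paternal allele (chromosome 7, 94656325 to 94669695, plus strand), had 253 CPM in WT, 589 in HET and 267 in KO. It was 2.33-fold higher in HET than in WT (2.30 to 2.36), higher in all 8 clusters and past 2-fold in 5. Within clusters KO was above WT in 7 of 8 and below HET in all 8, for example 92.3 CPM in WT, 176 in HET and 164 in KO in cluster 3. Its neighbour SGCE, imprinted with it, had 45.0, 54.1 and 39.1 CPM. The other imprinted gene past 2-fold, PLAGL1, had 6.14 CPM in WT and 13.6 in HET, but 6.14 in HET without cluster 9. Of the 17 imprinted genes measured, 8 were above WT and 9 below.

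DKK1, a secreted inhibitor of WNT signalling, had 38.8 CPM in WT, 89.5 in HET and 24.2 in KO and was past 2-fold in 6 of 8 clusters. WNT5A, a WNT ligand, had 43.0, 20.7 and 52.4 CPM, lower in HET in each of the 8 clusters. HABP2, a secreted serine protease, had 51.4, 113 and 56.6 CPM. HHEX, a homeobox factor of the early liver and pancreas bud, had 44.8, 82.7 and 40.5 CPM, and within clusters it was at least 2-fold higher in HET in 7 of 8. For these 4 genes the pooled KO level was nearer to WT than to HET. Within clusters, HET was above KO in 8 of 8 for DKK1, HABP2 and HHEX and below it in 8 of 8 for WNT5A. KO was above WT in 7 of 8 clusters for HABP2 and HHEX, in 3 for DKK1 and in 4 for WNT5A. Of the 22 regulators and markers of progenitors and ducts, 11 were above WT in HET and 11 below, with none past 2-fold. SOX9, the progenitor and duct factor, had 63.3, 40.7 and 38.0 CPM and PDX1 had 94.7, 64.0 and 49.4. NKX6-1, needed for beta cell progenitors, had 23.1, 11.9 and 8.04 CPM.

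Genes of DNA copying were higher in HET. Of 20 measured, 19 were above WT and 9 were past 2-fold, beside 46.2% and 1.66% of all genes. The list's median was 0.90, against -0.03 for all genes. Of the 9, RRM2, MCM4, GINS2 and CDC6 stayed past 2-fold without cluster 9. POLA1, CDT1 and CDC6 were under 5 CPM in WT and met the minimum only through HET. MCM4, a subunit of the replicative helicase, had 9.53 CPM in WT, 25.1 in HET and 19.3 in KO. PCNA, the sliding clamp of DNA polymerase, had 26.9, 56.8 and 43.6. Without cluster 9 the median was 0.68, and with clusters 1 to 8 weighing the same it was 0.43, above all genes in each of the 8. PCNA was higher in HET in each of these clusters, for example 107 against 185 CPM in cluster 8.

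Genes of mitosis behaved otherwise. All 22 were above WT in HET when cells were pooled, with a median of 0.79, and the median in KO was -0.03. It was 0.32 without cluster 9 and -0.30 with clusters 1 to 8 weighing the same. Taken cluster by cluster, the median of the list ran from -0.35 in cluster 8 to 0.94, above that of all genes in 7 of 8 clusters. MKI67, the proliferation antigen, had 17.0 CPM in WT and 38.4 in HET overall. Within the dividing cells of cluster 8 it had 257 and 250.2 CPM, and cluster 9 of HET had 158. CENPF, a kinetochore protein, had 525 and 501 CPM in cluster 8 and 403 in cluster 9 of HET. The pooled difference in these mitosis genes was thus not seen within cluster 8. The number of cells and the RNA per cell are not separated in the pooled sums.

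Mitochondrially encoded RNAs were higher in HET for 12 of 13 genes, beside 46.2% of all genes. Their median was 0.45 in HET and 0.23 in KO. MT-ND6, the complex I subunit on the opposite strand of the mitochondrial genome, had 105, 248 and 227 CPM. MT-ND3, another complex I subunit, had 4169, 7320 and 6490 CPM. MT-CO1, a core subunit of cytochrome oxidase, was almost level at 10698, 10007 and 9290 CPM. Use of strand in counting is not given in the sources used here, so MT-ND6 counts may include RNA from the other strand. The median share of mitochondrial UMIs per cell, which can rise in damaged cells, was higher in HET than in WT in each of clusters 1 to 8. In WT and HET it was 3.56% and 6.21% in cluster 7, and 4.79% and 5.48% in cluster 2. Cell damage was not measured, and the cause was not tested. Under a stricter filter (3000 or more UMIs, up to 10% of them mitochondrial) the list's median was 0.40. The 28 nuclear genes of the respiratory chain had a median of -0.05, with 0 past 2-fold.

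Liver genes were lower in HET. All 16 measured were below WT and 7 were at least 2-fold lower, beside 1.76% of all genes at the same level limit. The median was -0.91 in HET and -0.65 in KO, and it was -0.79 without cluster 9 and -0.58 with clusters weighing the same. TTR, the carrier of thyroid hormone and retinol, had 1682 CPM in WT, 702 in HET and 867 in KO. It was 2.40-fold lower in HET than in WT (2.38 to 2.42), at 3751 against 1418 CPM in cluster 2. FGA, the fibrinogen alpha chain, had 332, 145 and 270 CPM. The antiprotease SERPINA1 had 63.3, 25.5 and 33.9 CPM, and APOM, an apolipoprotein of high-density lipoprotein, 37.9, 14.2 and 18.3. APOA2, another apolipoprotein, was closest to level in HET at 421 and 393 CPM and stood at 787 in KO.

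Intestinal genes were lower as well, though less evenly. Of 15 measured genes 11 were below WT and 3 past 2-fold, beside 6065 and 198 of all 11273 genes. The median was -0.65 pooled and -0.34 with clusters weighing the same. AOC1, the histamine-degrading diamine oxidase, had 33.5 CPM in WT, 9.09 in HET and 5.22 in KO. It was a leading gene of cluster 6, which held 18.6% of the WT, 9.30% of the HET and 4.92% of the KO cells. With clusters weighing the same its log2 ratio was -1.43 in place of -1.88, and it was at least 2-fold lower in HET in 7 of 8 clusters. Adenosine deaminase ADA had 124, 51.6 and 52.7 CPM. CDX1 and CDX2, the homeobox factors of the gut, had 44.2, 20.4 and 21.8 CPM and 248, 132 and 152 CPM. CDH17, the cadherin of gut epithelium, ran the other way with 20.9, 40.2 and 19.5 CPM. The next 3 genes are not in the intestinal list and are named because they were among the 12 lowest ratios. FGF19, the gut hormone that restrains bile acid synthesis, had 62.8, 22.3 and 17.0 CPM and was below WT in all 8 clusters. SULT2A1, a sulfotransferase of liver and gut, had 50.7, 16.4 and 21.7 CPM. Lysozyme, LYZ, had 161, 65.8 and 66.5 CPM, and in cluster 2 the levels were 212 in WT and 81.6 in HET.

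Targets of the IRE1-XBP1 branch of the unfolded protein response had a small shift with many members. In this branch the sensor IRE1, encoded by ERN1, splices the mRNA of XBP1 in the endoplasmic reticulum stress response, and the XBP1 factor then raises genes of protein import, folding and export. Of 30 measured genes 27 were below WT in HET, beside 6065 of all 11273 genes, and 3 above, with KDELR3 past 2-fold. The median was -0.25 in HET and -0.22 in KO, against -0.03 for all genes in HET, and it lay below that of all genes in each of clusters 1 to 8. The promoters of 4 such genes are shown because they hold a sequence that the branch is known to use. Each run is the 250 bases before a start of the gene in RefSeq on GRCh38.p14, with the motif in capitals. GENCODE 29 places the gene start within the run for KDELR3, SEC62 and XBP1, and further upstream for SERP1, whose run therefore lies inside that longer gene model. The first pair holds the unfolded protein response element TGACGTGG and the second the endoplasmic reticulum stress element, CCAAT and CCACG with 9 bases between, each searched on both strands.
KDELR3 (chr22:38467846-38468095, plus strand): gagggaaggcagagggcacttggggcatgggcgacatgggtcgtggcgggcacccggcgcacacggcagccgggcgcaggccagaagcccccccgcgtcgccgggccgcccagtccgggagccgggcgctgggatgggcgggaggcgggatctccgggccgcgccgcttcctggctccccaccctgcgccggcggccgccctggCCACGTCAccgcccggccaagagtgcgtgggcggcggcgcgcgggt
SEC62 (chr3:169966557-169966806, plus strand): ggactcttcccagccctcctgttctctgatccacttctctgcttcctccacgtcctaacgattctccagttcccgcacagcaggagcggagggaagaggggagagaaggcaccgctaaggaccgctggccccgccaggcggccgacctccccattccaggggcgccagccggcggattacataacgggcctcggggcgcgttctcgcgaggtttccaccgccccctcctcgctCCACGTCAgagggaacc
SERP1 (chr3:150546497-150546746, minus strand): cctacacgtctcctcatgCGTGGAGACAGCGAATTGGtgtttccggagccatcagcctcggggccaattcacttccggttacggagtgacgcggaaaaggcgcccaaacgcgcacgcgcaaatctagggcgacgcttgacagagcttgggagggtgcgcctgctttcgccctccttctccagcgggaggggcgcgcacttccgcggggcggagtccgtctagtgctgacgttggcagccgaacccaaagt
XBP1 (chr22:28800570-28800819, minus strand): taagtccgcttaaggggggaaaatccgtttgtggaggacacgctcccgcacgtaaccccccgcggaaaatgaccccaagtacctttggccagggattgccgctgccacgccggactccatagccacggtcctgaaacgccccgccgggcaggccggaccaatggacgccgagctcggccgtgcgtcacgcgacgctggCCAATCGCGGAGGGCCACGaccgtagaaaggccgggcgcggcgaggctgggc
The first motif was found in 4 of the 27 of 30 list genes that had a promoter entry (HYOU1, KDELR3, SEC62 and, at a start inside the gene, SSR3) and in 0.780% of all 27305 genes with an entry, at any of their starts. The second was found in 4 of 27 (CRELD2, PDIA6, SERP1 and XBP1) and in 0.0916% of all genes. A match describes letters in a window and shows no binding.

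KDELR3, a receptor that returns escaped proteins to the endoplasmic reticulum, had 38.6 CPM in WT, 18.0 in HET and 19.9 in KO. It was 2.15-fold lower in HET than in WT (2.04 to 2.27) and below WT in all 8 clusters. Its relative KDELR2 had 316, 186 and 183 CPM. SSR3, a subunit of the complex at the protein import channel, had 422, 239 and 257 CPM, and EDEM2, which trims glycans of misfolded proteins, 33.8, 19 and 16.6. SERP1, which steadies membrane proteins under stress, had 268, 177 and 183 CPM. These members were all below WT by more than the median gene. XBP1 itself had 223, 180.4 and 180.7 CPM and was below WT in each of the 8 clusters. ERN1 had 9.76, 6.84 and 7.24 CPM. Of the 4 genes with the first motif 2 were below WT. SEC62 and HYOU1 lay above WT in HET, at 255 against 289.8 CPM and 96.9 against 99.0 CPM. All 4 genes with the second motif were below WT, in a list with 27 of 30 genes below. So few genes cannot show whether a motif goes with direction. Splicing of XBP1 was not analysed here.

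Genes of the interferon response and of HLA class I, which presents peptides to T cells, were mostly lower in HET. This held in 21 of 24 cases, beside 6065 of all 11273 genes, with PSMB9 past 2-fold. The median was -0.44 in HET and -0.14 in KO, and in HET it lay below that of all genes in each of clusters 1 to 8. Interferon-regulated genes are read through an element that was searched as a pair of TTTC with 2 bases between, on both strands. It was present at a start of 3.71% of all genes and of 15 of the 24 list genes that had an entry, of 30 in the list. The runs before B2M and IFIT3 are shown, with the element in capitals.
B2M (chr15:44711267-44711516, plus strand): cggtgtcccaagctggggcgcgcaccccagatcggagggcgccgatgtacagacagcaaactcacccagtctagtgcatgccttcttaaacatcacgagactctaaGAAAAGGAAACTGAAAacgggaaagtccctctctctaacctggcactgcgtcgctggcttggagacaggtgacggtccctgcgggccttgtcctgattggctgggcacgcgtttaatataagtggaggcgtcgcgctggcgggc
IFIT3 (chr10:89327747-89327996, plus strand): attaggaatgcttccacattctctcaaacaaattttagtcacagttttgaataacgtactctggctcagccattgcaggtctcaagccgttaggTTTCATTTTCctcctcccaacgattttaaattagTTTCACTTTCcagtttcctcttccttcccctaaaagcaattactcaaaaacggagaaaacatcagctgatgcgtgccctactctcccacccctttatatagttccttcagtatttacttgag
In B2M the capitals join 2 overlapping matches, and in IFIT3 they mark 2 separate ones. Of the 12 measured genes with the element, 11 were below WT, close to the share of the whole list.

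B2M, the constant chain of HLA class I, had 693 CPM in WT, 439.7 in HET and 477 in KO. The heavy chain HLA-C had 585, 396 and 478 CPM. The transcription factor IRF1 had 171.5, 111.9 and 145.8 CPM, and PSMB8, a subunit of the immunoproteasome, 82.7, 48.1 and 71.9. The guanylate-binding protein GBP1 had 24.3, 13.0 and 18.6 CPM. In each of these the pooled KO level lay between those of WT and HET. Within clusters, KO was above HET in 4 of 8 for B2M and in 6 of 8 for IRF1, PSMB8 and GBP1. Not all members shared the pooled order, as HLA-B had 206, 152 and 233 CPM, with KO above WT. IFIT3, an antiviral protein, was sparse at 14.5, 8.52 and 13.5 CPM. MX1, an antiviral GTPase, stood slightly above WT in HET, at 10.5 against 12.6 CPM. B2M was lowest in cluster 9, at 213 CPM in HET, and without that cluster HET had 464 CPM.

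A list of genes of the factor NRF2 and of other redox genes was below WT in 16 of 17 cases. Of all 11273 genes 6065 were below WT. The list's median was -0.42 in HET and -0.51 in KO. AKR1C3, a ketosteroid reductase, had 70.4, 30.2 and 25.1 CPM and was at least 2-fold lower in HET in 6 of 8 clusters. AKR1C1 had 60.1, 28.1 and 21.1 CPM. These genes are near-identical paralogs, so reads may be split between them. TXNIP, a brake on thioredoxin, had 77.5, 44.3 and 33.4 CPM. GPX2, a glutathione peroxidase of the gut and a leading gene of cluster 6, had 44.2, 23.7 and 15 CPM. With clusters weighing the same its log2 ratio was -0.53 in place of -0.90, and it was above WT in HET in 3 of 8 clusters.

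Genes linked to cell stretch and the YAP coactivator were lower in 15 of 22 cases, beside 6065 of all 11273 genes. CTGF, a matricellular YAP target, had 80.6 CPM in WT, 34.3 in HET and 31.9 in KO and was below WT in all 8 clusters, at 162 against 42.2 CPM in cluster 1. ANKRD1, another YAP target, had 627, 438 and 314 CPM. Contractile genes of the same list lay on both sides, with TPM1, a tropomyosin, at 424 in WT against 547 CPM in HET and TAGLN, an actin-binding protein, at 435 against 334. Without cluster 9 the log2 ratio was 0.10 for TPM1, in place of 0.37, and -0.32 for TAGLN, in place of -0.38. The median of the list was -0.26, below that of all genes in 6 of clusters 1 to 8 and above it in 2. Not in this list, and named as 2 of the 12 lowest ratios, were the vasoconstrictor EDN1, with 52.3, 18.4 and 29.9 CPM, and the collagenase MMP1, with 138, 57.2 and 26.6. MMP1, a leading gene of cluster 6, was above WT in HET in 2 of clusters 1 to 8. With clusters weighing the same its log2 ratio was -0.88, under 2-fold, in place of -1.27.

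Hormone RNAs were among the lowest ratios, in cells chosen to lack the endocrine programme. SST, somatostatin, had 170 CPM in WT, 11.4 in HET and 1.57 in KO. Much of the WT value lay in cluster 10, with 7667 CPM in WT against 128 in HET. GCG, glucagon, had 276, 68.3 and 3.67 CPM. GCG was spread almost evenly, between 206 and 344 CPM in clusters 1 to 8 of WT and between 59.8 and 98.9 CPM in those of HET. INS had 94.8, 41.7 and 16.3 CPM, and its gene overlaps a readthrough with IGF2. Above the CHGA limit the 7 hormones summed to 42422, 27462 and 6230 per 1000000 UMIs, and there were 1888, 748 and 1279 such cells. GHRL, ghrelin, ran the other way at 8.69, 20.1 and 23.2 CPM, and GAST, gastrin, was level between WT and HET at 10.8 and 10.9 CPM, with 1.37 in KO. The order of the libraries was the same within and above the limit for GCG, with 27973, 15166 and 687 CPM above it, and the part of free RNA from those cells was not tested.

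**Figure D4:**
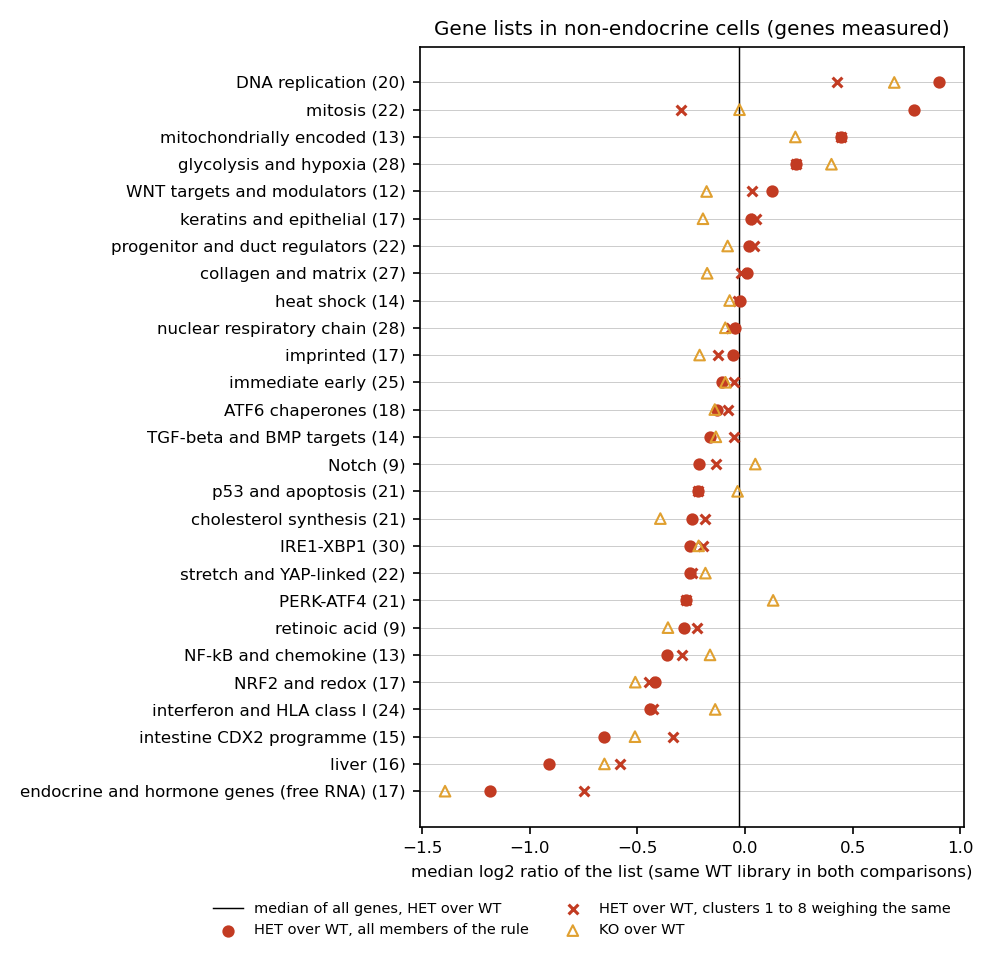
Median log2 ratio of each gene list with at least 9 measured genes (number in brackets), for HET over WT in all cells (filled circles), HET over WT with clusters 1 to 8 weighing the same (crosses) and KO over WT (open triangles), with the median of all genes as a line. Liver, intestine, redox and interferon lists lie left of the line in each of the 3 measures, and mitosis changes side when clusters weigh the same.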

How the data were processed

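The deposited values were raw UMI counts per gene and barcode. The file headers name Cell Ranger 6.1.2 as their writer. GRCh38, Cell Ranger and Seurat are named in the submitters' processing notes. The annotation, any barcode filter, the transcript end read and use of strand were not given in the sources used here. Of 33538 genes in the files, 33456 were found by identifier in GENCODE 29.

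For each library the counts of these cells were added up and scaled to CPM with TMM factors (edgeR 4.0.16) over the WT, HET and KO sums. Ratios have exact counting intervals, and a 0 was set to 3 counts. A gene was counted at 50 CPM in WT or HET and a 2-fold difference, and list genes were measured from 5 CPM. Named were the 12 highest and 12 lowest ratios, up to 4 members per list with at least 20 CPM and the largest ratios, PAX6, CHGA, FOSB, ERN1 and XBP1, and up to 2 chromosomes in each direction. Some of these genes are not reported here. Other list members were named for their role after their values were seen. The 37 gene lists and the rule for cells were chosen with earlier results of these data known.

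Clusters came from 2000 variable genes without PAX6, hormones, mitochondrial and ribosomal protein genes (30 components, 20 neighbours, Leiden resolution 0.6, scanpy 1.11.5). Doublets were kept, as Scrublet called 0 WT, 1 HET and 1 KO barcode and so did not work. The calculation was tested on simulated counts. Alternatives covered scaling, level minimum, the CHGA limit, cell filters, doublet scores and weighting. The 2 that leave out cluster 9, or 9 and 10, were chosen after seeing the data.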

Additional observations from a re-analysis of the deposited data

How the results depend on the processing

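No paired analysis was possible because each genotype had 1 library. The 14 higher and 42 lower genes became 28 and 24 with plain CPM, 38 and 91 at a minimum of 20 CPM, and 2441 and 1490 with 3 counts and no CPM minimum, where more genes were measured. With clusters weighing the same 19 genes were lower. The 24 highest and lowest ratios kept their direction and stayed past 2-fold under every planned setting except that one, where 22 kept direction and 20 stayed past 2-fold. There ANXA1, CENPF, PCNA and MMP1 fell under 2-fold. The log2 ratio was -0.12 for ANXA1 and -0.0509 for CENPF. For genes outside those 24 it was -0.10 for SPARC and -0.0528 for MKI67. Without cluster 9 it was -0.29 for ANXA1 and -0.0894 for SPARC, and without clusters 9 and 10 -0.32 and -0.10. The cause was not tested. Plain CPM turned the sign of the list medians of immediate early, heat shock, imprinted and nuclear respiratory chain genes. Genes under 20 CPM rest on few UMIs per cluster, and with 1 library per genotype the spread between replicates could not be measured.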

Other observations

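The PERK-ATF4 branch of the unfolded protein response slows translation and raises amino acid supply. Its genes were below WT in HET in 17 of 21 cases, beside 6065 of all 11273 genes. The list's median was -0.27 in HET and 0.13 in KO. ATF4, the branch's transcription factor, had 338 CPM in WT, 253 in HET and 344 in KO. Its target DDIT3 had 100.2, 68.0 and 107 CPM, and PSAT1, an enzyme of serine synthesis, 75.4, 81.6 and 137.2. The pooled list medians of HET and KO therefore lay on different sides of WT, which was not tested. Pooled ATF4 in KO was near WT. Within clusters 1 to 8, DDIT3 was above WT in 0 in HET and in 3 in KO. The same counts held for MTHFD2, another member of the list. Chaperones read by ATF6 had a median of -0.13 in HET, with 0 of 18 past 2-fold.

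Genes of cholesterol synthesis were below WT in 17 of 21 cases, beside 6065 of all 11273 genes. Their median was -0.25 in HET and -0.39 in KO. MSMO1, a sterol demethylating enzyme, had 277, 172 and 168 CPM, and SQLE, squalene epoxidase, 139.8, 98.5 and 90.7. Of 13 genes of NF-kB and chemokines 10 were below WT, beside 6065 of all 11273 genes. The chemokine CXCL8 had 12.7, 3.05 and 2.80 CPM. CXCL14, also in this list, was the 1 member at least 2-fold higher in HET, and 2 were at least 2-fold lower.

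Over 6884 genes with at least 20 CPM the median log2 ratio of HET over WT was -0.05. Chromosomes 19 (-0.12) and 16 (-0.11) had the lowest medians and chromosomes 13 (0.03) and 15 (0.02) the highest.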
